A study of Caenorhabditis elegans with 2 samples.

Results

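The gene rpr-1 encodes the RNA component of RNase P in Caenorhabditis elegans, and it carried 1 of the strongest binding sites of the zinc finger protein ZTF-28. It was chosen as 1 gene out of 46890 annotated nuclear genes because of its signal in these same peak lists. All peaks within 1000 bp of the gene were taken. These were 4 of the 103094 ranked peaks of the replicate comparison and 1 of the 1086 peaks in its thresholded list. The signal values at rpr-1 and their ranks are therefore a description and were not tested.

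RNase P is the ribonucleoprotein enzyme that cuts the leader from the 5′ end of tRNA precursors, and its RNA component carries the catalytic activity. In many animals, though not in all, the gene for this RNA is transcribed by RNA polymerase III, as are the tRNA genes. Its promoter elements there lie upstream of the start rather than inside the gene. Which polymerase transcribes rpr-1 was not tested here. RNase MRP is a related enzyme with its own RNA, which acts mainly in ribosomal RNA maturation and shares most protein subunits with RNase P.

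Chromatin immunoprecipitation with an antibody against GFP was followed by sequencing (ChIP-seq). The animals were of strain RW12281, allele st12281, in which CRISPR had placed TY1, EGFP and 3xFLAG tags on ztf-28 at its own locus on chromosome V. Both libraries carry that insertion and came from whole young adults at 63 hours, which had been bleached and starved as first-stage larvae for synchrony, with chromatin sonicated to 200 to 800 bp. They form 1 group of 2 biological replicates with no second condition, and no control library was analysed here. Whole animals mix all tissues, so the cells in which rpr-1 was bound cannot be told apart. Library depth is unknown, because the peak lists hold no counts of reads.

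The bases at rpr-1 are not printed, and 4 stretches of 151 bases in assembly ce11 from other chromosomes stand for the features to which it was compared. They are written 5′ to 3′ along the strand of the gene, with only the features named for each stretch in capitals. The first is centred on the summit at the tRNA gene ZC449.t1 (X:5022813-5022963, minus strand), which like rpr-1 lies antisense inside a protein-coding gene, and its capitals mark the B box, the internal promoter element of tRNA genes. The second is centred on the summit at the snoRNA gene ZK994.7 (V:8500477-8500627, plus strand), 1 of the 5 peaks most like that of rpr-1. The next is centred on a summit upstream of the vps-39 start (V:14038804-14038954, minus strand), a window that held as many of the 5 searched words as rpr-1. In both of these, capitals mark words of 6 bases described with the sequence results. The last is centred on the start of mrpr-1 (II:7200158-7200308, plus strand), the RNase MRP RNA gene, where the capitals mark TATAA before the start and 1 such word after it. TATAA was marked in this stretch only, and the ZK994.7 stretch also holds it, in lower case.
ZC449.t1: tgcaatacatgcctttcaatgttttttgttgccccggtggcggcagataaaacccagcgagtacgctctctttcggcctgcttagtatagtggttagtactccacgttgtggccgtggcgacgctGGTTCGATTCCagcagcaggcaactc
ZK994.7: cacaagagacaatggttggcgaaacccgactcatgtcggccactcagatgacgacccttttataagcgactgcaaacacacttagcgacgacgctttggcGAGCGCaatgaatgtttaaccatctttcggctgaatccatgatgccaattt
vps-39: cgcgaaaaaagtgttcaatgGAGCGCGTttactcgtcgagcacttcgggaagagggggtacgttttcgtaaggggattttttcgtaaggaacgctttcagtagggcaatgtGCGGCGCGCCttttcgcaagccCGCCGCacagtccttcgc
mrpr-1: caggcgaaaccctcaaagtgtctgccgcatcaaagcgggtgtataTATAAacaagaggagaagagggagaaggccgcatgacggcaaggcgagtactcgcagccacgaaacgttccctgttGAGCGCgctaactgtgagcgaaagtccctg

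The gene rpr-1 lies on the plus strand of chromosome I at 13463955 to 13464207 and is 253 bp long, with 1 transcript and 1 exon in the ncRNA class. The whole gene lies in an intron of ints-8, which encodes a subunit of the Integrator complex, a complex that processes snRNA and other transcripts. The host is transcribed from the minus strand, so rpr-1 is antisense to it. The intron spans 13462739 to 13464761, or 2023 bp, and separates exons 5 and 6 of the longer ints-8 transcript and exons 1 and 2 of the shorter one. The flanking exons are 1216 bp to the left of rpr-1 and 554 bp to its right. Besides ints-8, the only annotated gene with its body within 5000 bp was the piRNA gene 21ur-15556, which is 3520 bp away and held no ranked summit.

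The rpr-1 peak straddled the start of the gene. The conservative list holds peaks that passed a threshold on the irreproducible discovery rate (IDR) when the replicates were compared. The IDR is low where 2 lists both rank a peak high and do so alike. The conservative list lacks some ranked peaks of low IDR, for a reason no source used here states. A peak of IDR 0.0037 at a spliced leader RNA gene was left out, although that of IDR 0.0081 at snpc-3.1 was kept. In the conservative list the rpr-1 peak ran from 13463891 to 13464042. Its summit, the point of highest signal, was at 13463972, which is 17 bp inside the gene. The peak was 152 bp wide and covered 88 bp of rpr-1. In replicate 1 alone the peak ran from 13463949 to 13464019 with its summit at 20 bp, and in replicate 2 alone from 13463838 to 13464117 with its summit at 23 bp. All these summits lay between 17 and 23 bp after the start. Only the start window of rpr-1, from 500 bp before to 200 bp after a transcript start, held the conservative summit. The summit was 6399 bp downstream of the start of the longer ints-8 transcript and 874 bp downstream of that of the shorter one.

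The authors' signal value of the rpr-1 peak was 178.7 in replicate 1, 152.4 in replicate 2 and 337.6 in the pooled libraries. No source used here states the scale of this value, which serves below only to describe and rank peaks within a list. The mean of the replicates was 165.6 ± 18.6 (SD, n = 2), and their sum of 331.1 was close to the pooled value. Replicate 1 was the higher of the pair, by a log2 ratio of 0.23. Over the 1073 conservative peaks with a value from both replicates the median log2 ratio was -0.07, with quartiles of -0.32 and 0.22. Replicate 1 was higher at 460 of them (42.9%), and 616 (57.4%) had a larger ratio in either direction. Without centring, the ratio at rpr-1 was thus smaller than at most conservative peaks. It was in the less frequent direction and just above the upper quartile, and it was 0.30 when centred on the median ratio. The global IDR of the rpr-1 peak was 2.05e-05, and 18 conservative peaks had a lower one.

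**Figure D1:**
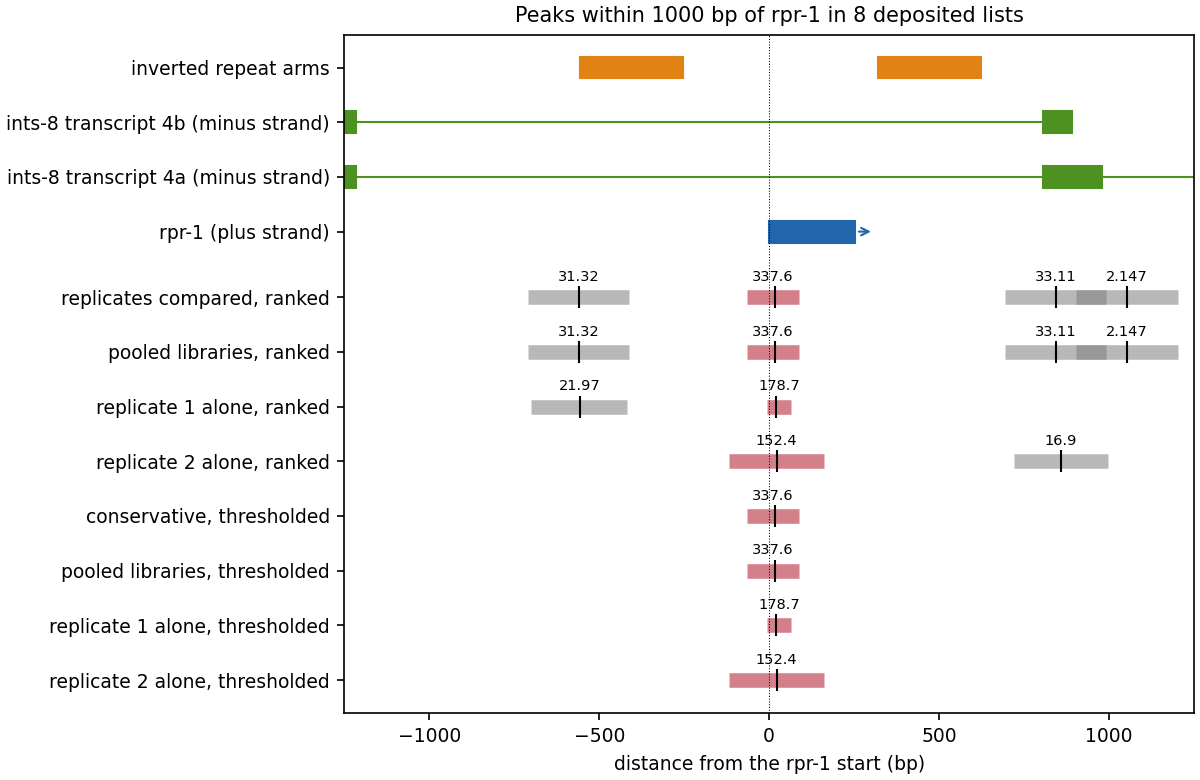
Peaks within 1000 bp of rpr-1 in the 8 deposited lists, by distance from the rpr-1 start in bp, drawn as bars with a tick at each summit and the authors' signal above (red, peaks that overlap rpr-1; grey, others). Exons of both ints-8 transcripts, rpr-1 and the arms of an inverted repeat are drawn to scale at the top; the top pair of lists is the ranked list of the replicate comparison and that of the pooled libraries, and the 4 thresholded lists hold only the peak at the rpr-1 start.

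The peak was present in each of the 8 lists, and it was among the first 43 by signal in every one. It ranked 18th of 1086 conservative peaks by signal and 18th of 1137 peaks in a second thresholded list made from both libraries, called the pooled list here. In the lists of single replicates, it ranked 14th of 342 for replicate 1 and 26th of 411 for replicate 2. Before any threshold it ranked 24th of 103094 peaks in the replicate comparison, of which 1.05% were kept in the conservative list. Some ranked peaks of higher signal are thus absent from the conservative list, and the classes of their genes were not examined. In the ranked lists of single replicates the rank was 16 of 65487 for replicate 1 and 43 of 65187 for replicate 2, so it was higher in replicate 1 with and without the threshold. The ranked list of each single replicate also gives a pair of values per peak, 1 from each of the 2 lists it was made from, whose origin no source used here states. These were 88.0 and 86.3 for replicate 1 and 82.0 and 63.3 for replicate 2, where the gap was wider.

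Around its rank the values formed a continuum. The peak just above was at rps-23, which encodes a small-subunit ribosomal protein, with values of 337.8 in the pool, 181.2 in replicate 1 and 158.8 in replicate 2. The peak just below was at dnj-28, which encodes a DnaJ-domain protein, with 332.7, 160.8 and 171.5 in the same order. The ranges of the replicate values of both overlapped that of rpr-1. Taken replicate by replicate, rps-23 was slightly above rpr-1 in each, whereas dnj-28 was below it in replicate 1 and above it in replicate 2. The order among these neighbours was not tested. The next peaks above were at K08F11.7 (354.4), K10D2.5 (365.9), cnk-1 (375.3) and rpl-35 (384.9), a large-subunit ribosomal protein gene. The next below were nearest to the starts of Y62F5A.12 (325.8), vps-39 (318.6), atad-3 (315.0) and imb-3 (309.3). Of these 10 neighbours, none was at a tRNA or snRNA gene, which follows from the highest ranks of those classes, 44 and 60.

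The 5 conservative peaks most like that of rpr-1 were found by the distance over the log2 pooled, replicate 1 and replicate 2 values, among 1072 others. They were those at rps-23 (distance 0.062), atad-3 (0.163), dnj-28 (0.230), ZK994.7 (0.262) and vps-39 (0.324). ZK994.7 was the only small RNA gene among them, with a pooled signal of 305.5 and its summit 27 bp before the start, whereas the rpr-1 summit lay inside the gene. The likeness is in signal in 2 libraries only.

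**Figure D2:**
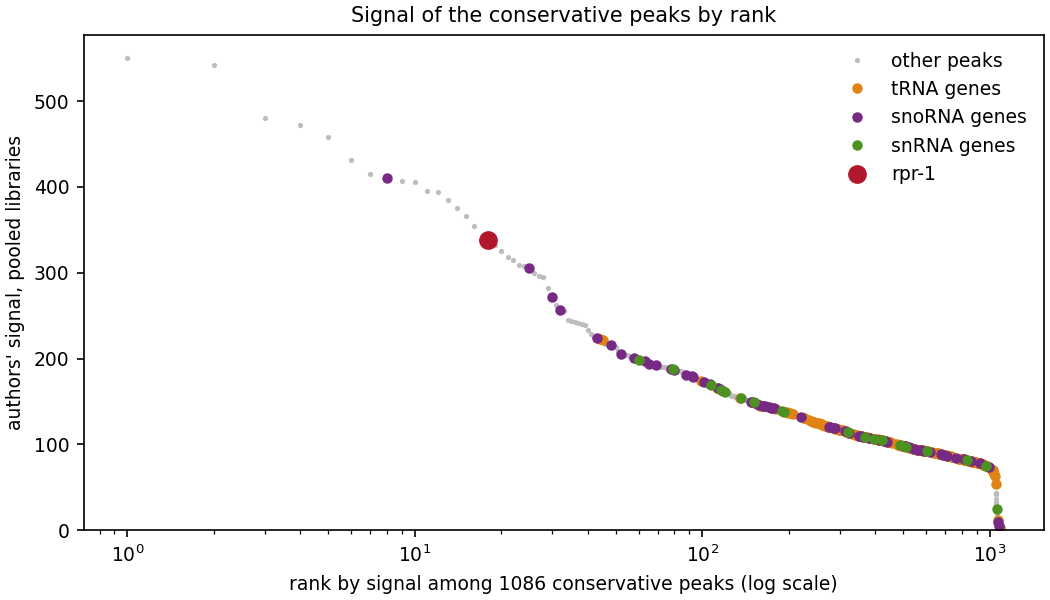
The authors' pooled signal (vertical axis, from 0) of the 1086 conservative peaks by rank (horizontal axis, log scale), 1 point a peak, coloured by the class of the gene. The rpr-1 peak, at 337.6, lies above every tRNA and snRNA gene point and below 1 snoRNA gene point.

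The narrow width of the peak was shared with other strong peaks. A full conservative peak is 300 bp wide, and 48 of 1086 were narrower, among them 24 of the 25 peaks of highest signal and 24 of the other 1061 (2.26%). At 152 bp the rpr-1 peak was the narrowest of the top 25, and 20 conservative peaks outside them were narrower. In the thresholded list of replicate 1 alone, where it was 71 bp wide, no peak was narrower, whereas in that of replicate 2 alone it had the full 280 bp. The width thus differed between the replicates by more than the summit did.

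Signal at rpr-1 was compared with that at the other genes of small structural RNAs. Peaks were assigned to a class by start windows, which held a conservative summit at 2.5% of all genes, 32.8% of tRNA genes, 14.7% of snRNA genes, 18.5% of snoRNA genes and 3.04% of ncRNA class genes. The 176 peaks at tRNA genes had signals from 2.31 to 222.5 with a median of 96.0, so rpr-1 ranked first when placed among them. The strongest of these was at M02F4.t1 with 222.5, and its replicate values of 99.7 and 130.7 did not reach the lower replicate value at rpr-1. It was followed by F15G9.t2 (221.9) and F44A2.t1 (173.5). The 19 peaks at snRNA genes had signals from 25.04 to 198.1 with a median of 113.9, and rpr-1 again ranked first. The highest were at T11F9.15 (198.1), sls-2.1 (187.6), a gene for a spliced leader RNA, and F54D8.7 (169.2). In each replicate separately, no conservative peak at a tRNA or snRNA gene was above rpr-1. The lowest tRNA gene peak was listed with the same replicate values as a stronger tRNA gene peak of signal 106.6. The lowest snRNA gene peak was listed with those of an snRNA gene peak of signal 138.2. The ranges and class counts thus include entries that share replicate values.

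Peaks at snoRNA genes came closer to rpr-1. The RNAs of these genes guide the chemical modification of other RNAs. Their 65 peaks had a median signal of 120.1, and 1 of them, at F59C6.15 with 410.1, was above rpr-1. ZK994.7 (305.5) and W03C9.9 (271.6) followed. In replicate 1 the peak of 1 snoRNA gene was above rpr-1, and in replicate 2 the peaks of 2, of which W03C9.9 had a value of 161.4 in replicate 2 and only 104.9 in replicate 1.

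**Figure D3:**
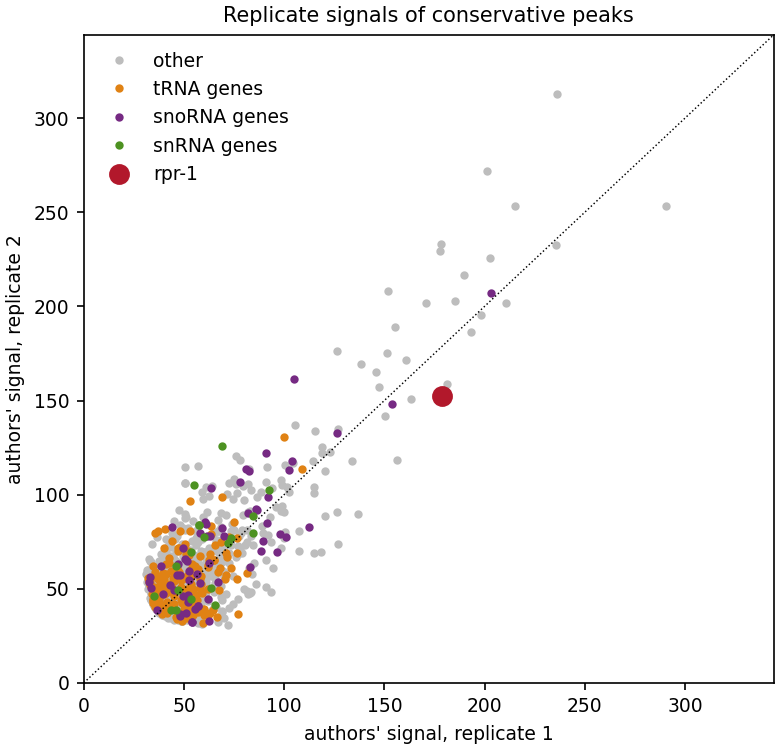
The authors' signal in replicate 1 (horizontal) and replicate 2 (vertical) for the 1073 conservative peaks with both values, 1 point a peak, with a dotted line where they are equal. The rpr-1 point, at 178.7 and 152.4, lies below the line and apart from the tRNA and snRNA gene points, which reach 108.9 and 130.7 at most.

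Among peaks found only at its own annotation class, rpr-1 stood near the top. Summits shared with windows of another class were left out here, unlike for the tRNA, snRNA and snoRNA classes. With shared summits counted, 236 ncRNA class genes had one, and the rank of rpr-1 among those was not taken. The start windows of ncRNA genes, and of no other class, held 29 conservative summits with a median signal of 83.1, and rpr-1 ranked 3rd. In 17 of these the summit lay inside the ncRNA gene, and among those rpr-1 ranked first, followed by F26F4.14 with 144.8. Of 143 summits inside a tRNA, snRNA or snoRNA gene or the genes rpr-1, mrpr-1 and yrn-1, 71 had no protein-coding host, 39 had a host on the same strand and 33 had an antisense host, as rpr-1 has. Among those 33, the next after rpr-1 was ZC449.t1, whose sequence is given above, with a signal of 165.8. The highest with a same-strand host was C51F7.4, with 257.1.

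The summit position at rpr-1 was like that at tRNA and snRNA genes. In start windows of tRNA genes the median summit lay 17.5 bp after the start and in those of snRNA genes 15 bp after it, next to 17 bp at rpr-1. Of the tRNA gene summits 44 of 176 (25%) lay within 10 bp of the rpr-1 position, as did 7 of 19 snRNA gene summits (36.8%) and 4 of 65 snoRNA gene summits (6.15%). Most snoRNA gene summits, 57 of 65, lay farther upstream than that of rpr-1.

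**Figure D4:**
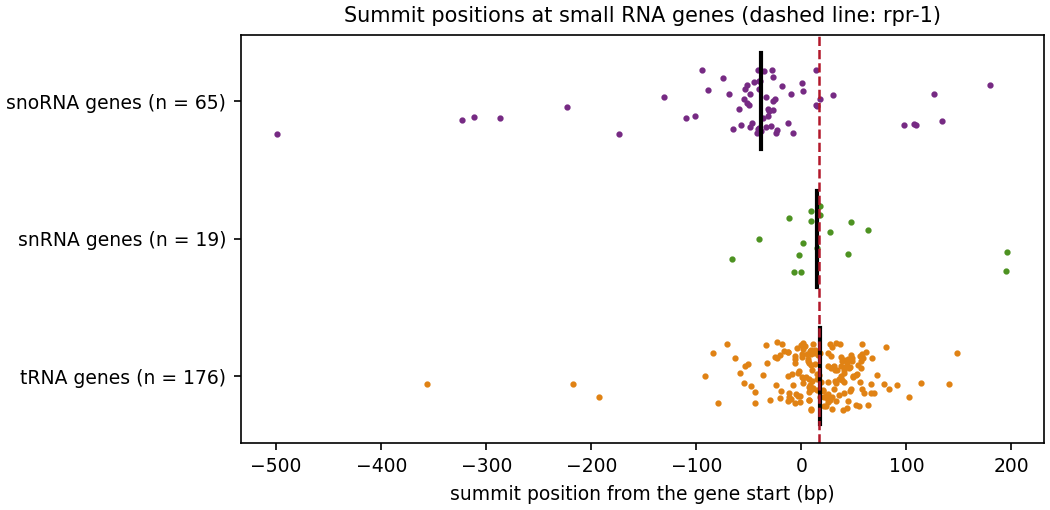
Summit position relative to the gene start (bp, horizontal axis) for conservative peaks at tRNA, snRNA and snoRNA genes, 1 point a peak with random vertical spread; black lines are medians and the dashed line is rpr-1. The rpr-1 summit at 17 bp runs through the middle of the tRNA and snRNA gene points and to the right of most snoRNA gene points.

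The remaining ranked peaks near rpr-1 were weak. Within 1000 bp, 3 others were listed, with summits at -561, 844 and 1054 bp from the rpr-1 start and signals of 31.3, 33.1 and 2.15. The first had values of 22.0 in replicate 1 and 10.7 in replicate 2, with an IDR of 0.522. The second had 12.5 and 16.9 and an IDR of 0.456, and its summit lay in an ints-8 exon, 47 bp downstream of the start of the shorter transcript. The third overlaps the second and is listed with the same replicate values. In the ranked lists of single replicates, the first was listed for replicate 1 only and the second for replicate 2 only. The values of 10.7 and 12.5 thus come from the replicate comparison alone and were not matched to a single-replicate list. Just outside the reach were peaks with summits at 1992 bp (signal 13.6) and -2412 bp (19.04). Over 5000 bp to each side, 12 other ranked peaks had signals from 2.15 to 47.4 with a median of 22.5 and IDRs from 0.387 to 0.761. The gene ints-8 held 13 ranked summits, and the only 1 of them in the conservative list was that at rpr-1.

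The spacing of the rpr-1 site along the chromosome was ordinary. The nearest other conservative summit was 23.7 kb away, at Y48G10A.2 with a signal of 149.5, and on the other side the nearest was 41.1 kb away, at fbxb-66 with 74.9. The median distance to the nearest other conservative summit was 20.95 kb over all peaks. Of the 213 conservative peaks on chromosome I, that at rpr-1 ranked 3rd by signal.

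Of the other 5 listed genes of RNase P and RNase MRP found in the annotation, none had a conservative summit in a start window. The share was 2.5% of all genes and 2.99% of protein-coding genes, so a count of 0 of 5 is near the background, and rpr-1 itself was chosen for its signal. The RNase MRP RNA gene mrpr-1, on chromosome II at 7200233 to 7200418, had a ranked peak at 128 bp from its start with a signal of 75.6. Its replicate values were 44.7 and 24.7 and its IDR was 0.0569. It ranked 1242nd by signal and was not in the conservative list. The protein subunit genes popl-4 and popl-5 had ranked peaks with signals of 14.7 and 38.7 and IDRs of 0.516 and 0.568, and popl-1 and popl-7 had none in their windows. Of 3 further genes taken as RNase P subunits from RefSeq products, and added after the values were seen, none had a conservative summit. The highest ranked signal among them was 38.8, at H35B03.2, whose listed product was a non-coding transcript. Another of the 3, listed as subunit p20, overlaps popl-7, whose listed product was Protein kish, so these entries are not separate sites.

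Other genes of tRNA production and of small RNA transcription were counted in the same way. None of 9 tRNA maturation genes had a conservative summit, nor had the 6 genes for RNA polymerase III subunits or the 6 for its factors. With a summit at 2.99% of all protein-coding genes, these counts of 0 are near the background. The gene ard-1 on chromosome IV, whose product belongs in mammals to the protein-only RNase P of mitochondria, had none, and its best ranked signal was 30.8. Of 8 genes for SNAPc, the complex that binds upstream promoter elements of snRNA genes, 3 had one. These were snpc-3.4 (139.1, at -67 bp), the pseudogene snpc-3.3 (107.3, at -359 bp) and snpc-3.1 (71.3, at -278 bp), all below the signal at rpr-1. Among 32 other small RNA genes, mostly of the spliced leader RNA group, 6 of that group had one, next to 14.7% of snRNA genes, from sls-2.1 at 187.6 to sls-2.5 at 75.4, with sls-2.8 (149.1), sls-2.4 (138.2), sls-2.2 (104.9) and the pseudogene sls-2.19 (95.8) between them. Another spliced leader RNA gene had no conservative summit, although its window held a ranked peak of signal 83.3 and IDR 0.0037. The Y RNA gene yrn-1 had no conservative summit, and its best ranked signal was 29.2.

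The rpr-1 site was rich in G and C. In the 151 bases centred on the summit, 58.9% were G or C, with 14 CG pairs. The median over all conservative peaks was 47.4% with 10 CG pairs, and in windows 300 bp to each side 35.8% with 5. Of the 1086 conservative peaks, 70 (6.45%) had at least the G and C share of rpr-1 and 190 (17.5%) at least as many CG pairs. The G and C share of rpr-1 was reached by 3 of 176 tRNA gene peaks, 0 of 19 snRNA gene peaks, 6 of 65 snoRNA gene peaks (9.23%) and 2 of the 25 peaks of highest signal (8%). The medians were 49.0% at tRNA, 49.0% at snRNA and 52.3% at snoRNA genes. The composition was uneven around the gene, with 69% in the 100 bp before the start, 50.99% in the gene and 30% in the 250 bp after it, next to 35.7% over chromosome I.

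**Figure D5:**
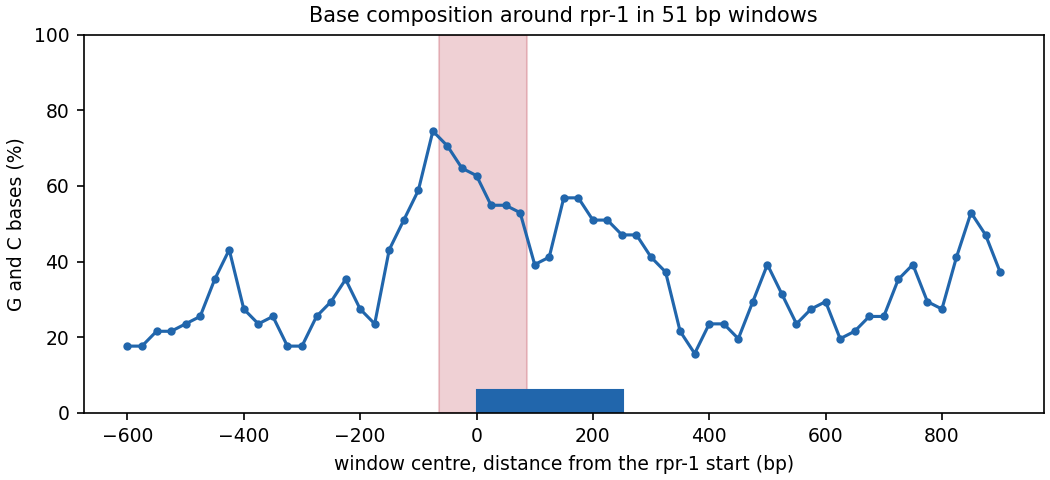
Share of G and C bases (%, vertical axis) in 51 bp windows by distance of the window centre from the rpr-1 start (bp), with the conservative peak shaded and the gene as a blue bar. The share is highest just before the start, where the 100 bp before it hold 69%, and falls to 30% in the 250 bp after the gene.

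Short words that were frequent at the conservative peaks were also found at rpr-1. The 5 words of 6 bases with the largest excess at summits over flanks, on both strands and chosen on these data, overlap each other in part. CGCGGC was in 15.6% of peaks and 1.70% of flank windows, and ACGCGC was in 15.7% and 1.84%. CGCGCC was in 14.8% of peaks and 2.30% of flank windows. GAGCGC was in 15.1% and 2.58%, and CGCCGC was in 15.5% and 3.27%. At rpr-1, 4 of the 5 occurred, all but GAGCGC, and they overlap in 1 stretch whose words begin at -20, -19, -17 and -14 bp from the start, between 31 and 37 bp before the summit. Only 18 conservative peaks (1.66%) held at least 4, among them that at vps-39 shown above, and 1 of 2172 flank windows (0.046%). No tRNA or snRNA gene peak held that many, and 2 snoRNA gene peaks did. At least 1 of the words was in 45.7% of peaks and 8.98% of flank windows. A word match is a description of the sequence and not a binding site.

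The promoter elements inside tRNA genes were searched for in the 301 bases around the summit. The B box, searched on both strands as the 11 letters marked at ZC449.t1 with the 8th and 9th left free, was not in the rpr-1 window, but it was in 115 of 176 tRNA gene windows (65.3%), as in the ZC449.t1 stretch, and in 0.783% of flank windows. The A box, the other internal element, was searched for as a fixed word of 12 letters with 3 left free. It was not in the rpr-1 window, but it was found in only 1 of 176 tRNA gene windows and 7 of 1086 conservative windows (0.645%), so this search did not pick out tRNA genes. The word TATAA, chosen after the sequence was seen and searched on the gene's strand from -45 to -16 bp, began at -28 bp from the rpr-1 start and at -30 bp from the mrpr-1 start and was not before yrn-1. It was in that window at 15.5% of snRNA genes, 9.57% of protein-coding genes, 5.78% of snoRNA genes, 3.63% of ncRNA class genes and 3.43% of tRNA genes. A run of 4 T, the usual end signal of RNA polymerase III, first came 31 bp after the annotated end of rpr-1 and 9 bp after that of mrpr-1.

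The rpr-1 gene and its peak were unique in the assembly by alignment, but their surroundings were not. Aligned with BLAST at an E-value of at most 1e-05, the gene and 1000 bp to each side gave 674 matches elsewhere, all on chromosome I, of which 62 lay within 10 kb. None of them overlapped rpr-1 or its conservative peak. The best inverted repeat had an arm on each side of the gene, at 13463399 to 13463701 and 13464276 to 13464577, with 91.5% identity over 306 aligned bp. The arms ended 253 bp before the gene and began 68 bp after it, and were 189 and 233 bp from the rpr-1 peak. The left arm overlapped the weak peak of signal 31.3 by 145 bp, and the right arm did not overlap that of 33.1. No source used here states how reads that match both arms were treated, and their part in the weak peaks was not tested.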

How the data were processed

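The authors deposited ranked and IDR-thresholded peak lists from ChIP-seq of 2 libraries, in assembly ce11 per the labels. No source used here names the aligner or peak caller, and library depth is unknown. Each deposited peak has a signal value, a score and −log10 values of the q-value and of the IDR, all made by the authors, with the signal's scale not stated. Per the deposited notes, lists were made for each replicate alone and from both libraries. Of the latter, 1 pair compares the replicates, of which the thresholded one is called conservative by the authors, and another pair is called pooled here.

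The gene rpr-1, the gene lists and the words were chosen with earlier results of these data known. Genes came from the Ensembl annotation of WBcel235, with names from RefSeq. A gene was counted where a summit lay 500 bp before to 200 bp after a transcript start. Replicate values were matched to the replicates' own ranked lists by interval, which found both at 1073 of 1086 peaks, with values equal within 1e-06. Named genes were rpr-1, genes within 5000 bp, the 5 peaks above and 5 below it, the 3 highest peaks of each small RNA class, the RNase P and MRP genes, other listed genes with a summit and the 5 most alike peaks. F26F4.14, ZC449.t1, C51F7.4, Y48G10A.2, fbxb-66, ard-1, yrn-1 and H35B03.2 were added after their values were seen. Alternatives were other lists, single replicates, other windows and other reaches. The window code was tested on simulated summits. Python 3.11.15, NumPy 2.4.6, pandas 2.3.3, matplotlib 3.10.9 and BLAST 2.17.0 were used.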

Additional observations from a re-analysis of the deposited data

How the results depend on the processing

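Of 39 alternatives for 8 results, 33 moved the value by no more than a set spread, or a count by no more than 1.5 times. For ranks and the summit position, the spread was the SD of the single-replicate values, which were also among the alternatives. For the log2 ratio it was the SD of 0.41 over conservative peaks, and the alternative from the replicates' own lists held the same values. The rank of the rpr-1 peak was 14 without replicate 2 and 26 without replicate 1, 19 by the lower replicate value and 24 over all ranked peaks. An IDR of at most 0.01 kept all 1086 conservative peaks, so that alternative changed nothing. Among snoRNA gene peaks its rank moved from 2 to 4 when summits within 1000 bp of a gene were counted, and was 2 to 3 when 1 replicate was left out. Among tRNA and snRNA gene peaks it was 1 under each alternative run, all of them in thresholded lists. Class ranks were not taken in the ranked list, which holds peaks above rpr-1 that the conservative list lacks. The ranked peaks within reach fell from 4 to 2 without either replicate, and the summit moved from 17 bp to between 20 and 23 bp in single replicates. The log2 ratio of the replicates was 0.30 when centred on the median ratio. The count of RNase P and MRP genes with a summit was 1 under each alternative, including 1 added after seeing the data with 3 more genes. No paired analysis was possible because the 2 libraries form 1 group. The unknown depth and the small number of replicates limit all values, and 1 ratio from 2 libraries has no error of its own.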
